A study of Homo sapiens with 10 samples.

Results

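The 45 genes described here encode synaptic and neuronal adhesion proteins, and they were taken as a list of gene symbols. Of the 45 genes, 41 were listed in the RNA-seq count tables, which together hold 19695 genes. The 4 genes in neither table were *SLITRK2*, *LRRTM1*, *CNTN4* and *CNTN6*. All libraries came from T47D, an established luminal breast cancer cell line with high endogenous TRPS1, a GATA-type transcription factor that represses genes. For RNA-seq, cells received control siRNA, *TRPS1* siRNA or *CHD4* siRNA and were collected 72 h after transfection, with 2 libraries per group of total RNA depleted of ribosomal RNA. CHD4 is the chromatin-remodelling ATPase of the NuRD complex, and for its knockdown the labels and the RNA interference methods name an siRNA while the RNA-seq methods name an shRNA. For ChIP-seq, 2 libraries made with TRPS1 antibodies and 2 input libraries gave 1 list of 1844 TRPS1 peaks. The study asked which genes TRPS1 binds and represses and whether CHD4 takes part.

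Synapses are held together by pairs of membrane proteins that meet in the cleft between neurons. Neurexins on the sending side bind neuroligins and leucine-rich repeat proteins (LRRTM and related families) on the receiving side, and receptor phosphatases of the LAR family bind SLITRK, LRFN (also called SALM), LRRC4B and IL1RAPL proteins in the same way. Contactins, their CNTNAP partners, L1-type molecules and the CADM (SynCAM) family carry immunoglobulin domains or bind proteins that do, and guide axons or organize contacts with glia. Several of these proteins, among them the phosphatase PTPRF, CADM1 and CADM4, are also known from epithelial cell contacts, whereas most of the others are best known from brain.

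Promoter sequences are shown for 3 of the 4 adhesion genes that were the nearest protein-coding gene to a TRPS1 peak, *NLGN1*, *NLGN3* and *SLITRK6*. Each covers 250 bases before to 50 bases after a gene start in RefSeq (GRCh38.p14), 5′ to 3′ on the strand of the gene. Capitals mark the GATA words searched, AGATAA or AGATAG or TGATAA or TGATAG on either strand. *NLGN1* has 2 starts, at chr3:173395702-173396001 and chr3:173397494-173397793 (plus strand). The *NLGN3* promoter is chrX:71144591-71144890 (plus strand) and the *SLITRK6* promoter is chr13:85799370-85799669 (minus strand).
NLGN1 promoter 1: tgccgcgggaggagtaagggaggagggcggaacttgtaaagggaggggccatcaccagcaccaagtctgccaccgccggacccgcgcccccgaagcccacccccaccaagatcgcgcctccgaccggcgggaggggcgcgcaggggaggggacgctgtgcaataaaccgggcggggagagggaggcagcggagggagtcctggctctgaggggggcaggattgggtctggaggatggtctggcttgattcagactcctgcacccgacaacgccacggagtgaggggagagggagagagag
NLGN1 promoter 2: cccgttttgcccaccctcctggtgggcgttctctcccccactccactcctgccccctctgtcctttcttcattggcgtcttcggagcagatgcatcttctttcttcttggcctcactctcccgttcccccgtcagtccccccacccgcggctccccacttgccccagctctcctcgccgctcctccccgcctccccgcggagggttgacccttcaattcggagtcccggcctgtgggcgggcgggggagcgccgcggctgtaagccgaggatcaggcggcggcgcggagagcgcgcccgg
NLGN3 promoter 1: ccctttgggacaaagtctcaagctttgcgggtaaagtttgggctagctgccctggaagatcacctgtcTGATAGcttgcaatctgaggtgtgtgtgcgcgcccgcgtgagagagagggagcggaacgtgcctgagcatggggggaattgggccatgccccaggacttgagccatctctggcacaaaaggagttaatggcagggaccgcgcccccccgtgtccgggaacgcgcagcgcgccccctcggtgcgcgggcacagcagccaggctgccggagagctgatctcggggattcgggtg
SLITRK6 promoter 1: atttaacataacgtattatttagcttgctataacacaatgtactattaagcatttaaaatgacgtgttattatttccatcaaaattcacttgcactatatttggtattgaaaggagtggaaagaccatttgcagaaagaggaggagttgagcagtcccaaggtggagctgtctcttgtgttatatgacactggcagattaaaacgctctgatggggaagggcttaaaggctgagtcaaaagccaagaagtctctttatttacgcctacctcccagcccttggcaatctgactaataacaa

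*NLGN3* held 1 such word, at position -182 from its start, and the windows of *NLGN1* and *SLITRK6* held none. The *NLGN1* windows had a GC content of 68.3% and 69.3%, that of *NLGN3* 63.3% and that of *SLITRK6* 38.7%. Of the 58 promoters that RefSeq lists for 38 of the 45 genes, 11 (19%) held a GATA word, against 20% of 22183 promoters of all protein-coding genes. The adhesion genes stood near the background share. *NLGN1* was also measured by the study outside sequencing, with the following designed primers for its transcript (QPCR) and for its chromatin (Qchip), which were not placed on the genome here.
NLGN1-QPCR-F: caacaggggaacgtcgttttc
NLGN1-QPCR-R: agcatgacttctggcaatctg
NLGN1-Qchip-F: ctagagggaagtaaaggaga
NLGN1-Qchip-R: cagtatctccatttgaccat

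The RNA-seq libraries held 10333138 to 14668358 counts, so that 3 counts, the limit of detection used here, equalled 0.2045 to 0.2903 CPM, the counts scaled to library size. Control siRNA replicate 1 stood apart from the rest. Its correlation with the other libraries across 13269 expressed genes was 0.8736 to 0.8933, against 0.9458 to 0.9771 among the other 5, and 266 of these genes had 0 counts in it, against 0 to 3 in each other library. It touches every comparison with control siRNA. Each targeted gene was lower in its own knockdown, *TRPS1* with a log2 fold change of -0.97 (SE 0.39, edgeR unadjusted p = 0.0459, adjusted p = 0.659, n = 2 per group) and *CHD4* with -1.96 (SE 0.42, unadjusted p = 0.00186, adjusted p = 0.784). The values were -1.26 and -1.91 without control siRNA replicate 1, and that of *CHD4* was -1.58 (unadjusted p = 0.0574) when *CHD4* siRNA replicate 2 was left out. All 8 luminal epithelial markers examined, such as *KRT8*, *GATA3* and *ESR1*, had 3 counts or more in every library. Of 9 neuronal markers 4 did, *SNAP25* and *STMN2* were in neither table, and *ELAVL4* stayed under 3 counts throughout. The neuronal markers summed to 25 and 22.4 CPM with control siRNA, 46 and 45.1 with *TRPS1* siRNA and 66 and 79.6 with *CHD4* siRNA. *MAP2* and *TUBB3* were called higher upon *TRPS1* silencing (2.7% of all genes were) and *SYP* and *TUBB3* upon *CHD4* silencing (2.6%). The part of these markers in the results below was not tested. The luminal markers summed to 13400 and 10600, 6030 and 6340, and 6660 and 5430 CPM in the same order. *KRT8* and *KRT19* were called lower in both knockdowns and *KRT18* upon *CHD4* silencing. The other luminal markers, *GATA3* and *ESR1* among them, were not called. Of all genes, 3.17% were called lower upon *TRPS1* silencing and 2.85% upon *CHD4* silencing. Fibroblast markers summed to 60.4 to 145 CPM and leukocyte markers to 4.94 to 9.62 CPM. Only 1 fibroblast and 2 leukocyte markers were tested, with 0 called, and the neuronal calls came from 4 markers tested. In such bulk libraries, more RNA per cell and more cells that express a gene cannot be told apart.

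Detection in every library rested partly on control siRNA replicate 1, where alone 6 adhesion genes (and 963 of all genes) fell under 3 counts. Over all 19695 genes listed, 13672 had 3 counts or more in every library. Of the 45 genes, 20 had 3 counts or more in each of the 6 libraries, 15 reached 3 counts in some libraries only, and 6 stayed under 3 counts everywhere (*SLITRK1*, *LRFN5*, *CNTNAP3*, *CADM2*, *CADM3* and *IL1RAPL1*, with 0 to 2 counts each). Only 9 had 100 counts or more in every library. For genes under 3 counts a difference was not detectable at this depth. *CNTNAP3* has a near-identical copy, *CNTNAP3B*, so its 0 to 2 counts are uncertain in any case.

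Detection differed by role. Among the receptor phosphatases and IL1RAPL1, 2 of 4 genes were measured in every library. *PTPRF*, which encodes the LAR phosphatase, had 6955 to 13218 counts, and *PTPRS* had 1909 to 4115, whereas the neuronal phosphatase gene *PTPRD* had 0 to 9. Among the immunoglobulin molecules, 4 of 7 were measured throughout: *CADM1* with 920 to 2309 counts, *CADM4* with 91 to 310, *L1CAM* with 152 to 289 and *NCAM1* with 4 to 28. *NRCAM* had 0 to 16 counts. Of the neuroligins and neurexins 3 of 5 were measured throughout. *NLGN2*, known from inhibitory synapses, had 723 to 2256 counts, *NLGN1*, known from excitatory synapses, had 41 to 127, and the presynaptic *NRXN2* had 3 to 49. The other 2 members of this role, *NLGN3* and *NRXN3*, had 2 to 26 and 0 to 4 counts.

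Of the 21 leucine-rich repeat organizers, 9 were measured in every library, from *LRFN4* (360 to 655 counts) and *SLITRK4* (189 to 406) down to *LRRC4B* (6 to 39). Families split: 3 of 5 *LRFN* genes, 2 of 3 *FLRT* genes, 2 of 3 *LRRC4* genes and 2 of 6 *SLITRK* genes passed, and 0 of 4 *LRRTM* genes did. *LRRTM2*, *SLITRK6* and *LRFN2* failed only through control siRNA replicate 1, with 0 counts each there. In the remaining libraries they had 117 to 193, 7 to 178 and 6 to 19 counts. The contactins were close to the limit. None of the 5 *CNTN* genes reached 3 counts in every library, and the highest value was 37 counts of *CNTN1* in *CHD4* siRNA replicate 1, with 7 in replicate 2 and 0 to 6 in the other groups. Of the 3 *CNTNAP* genes, *CNTNAP1*, which encodes a protein of the axon-glia junction beside the node of Ranvier, had 276 to 692 counts and *CNTNAP2* had 3 to 22. These are counts per gene, and gene lengths were not taken into account, so they do not rank genes by transcript number.

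**Figure D1:**
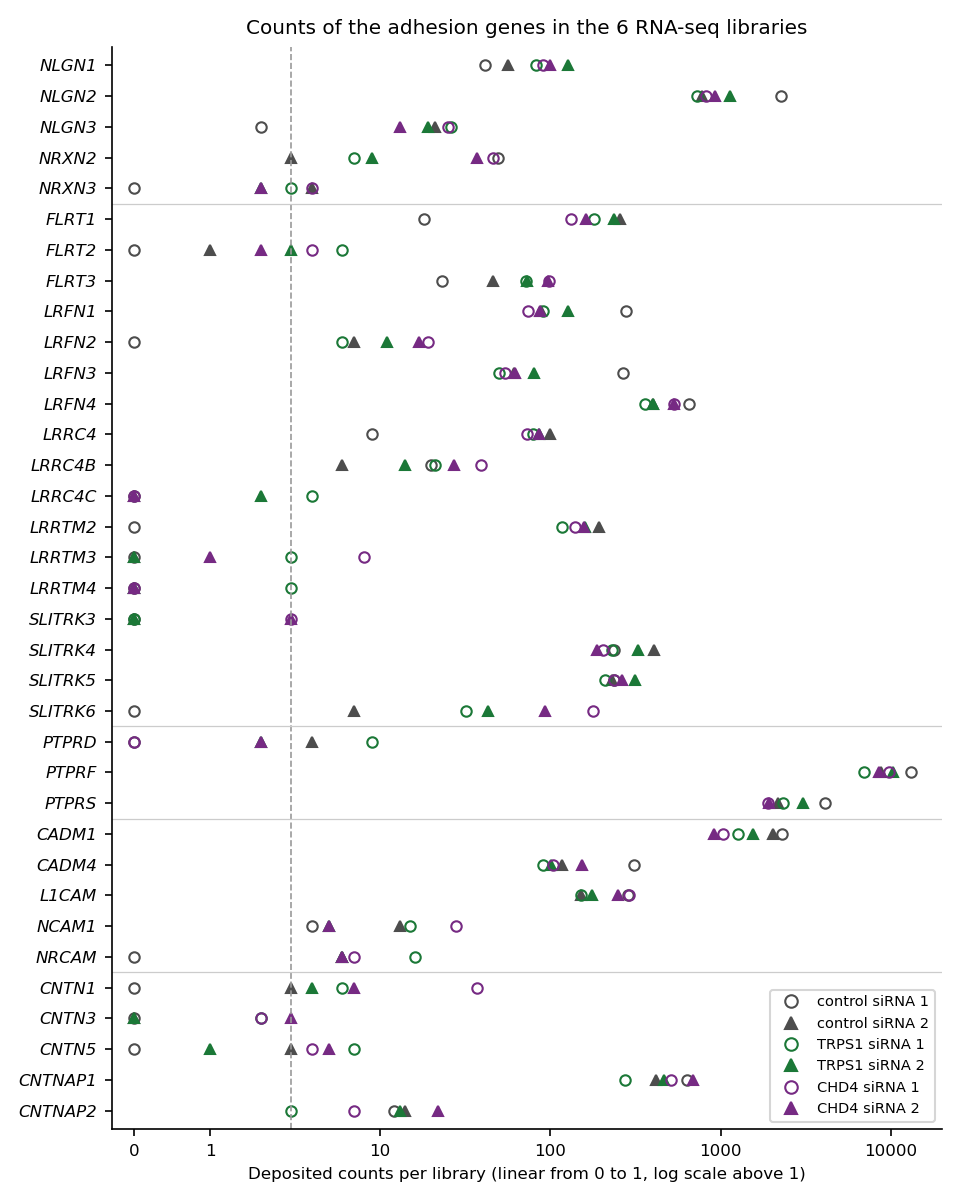
Deposited counts (horizontal axis, linear from 0 to 1 and logarithmic above) of the 35 adhesion genes that reached 3 counts in at least 1 library, by role from neuroligins at the top to contactins at the bottom. Circles are replicate 1 and triangles replicate 2 of control (grey), *TRPS1* (green) and *CHD4* siRNA (purple), the dashed line marks 3 counts, and the groups of *SLITRK6* do not overlap, from 0 and 7 counts with control siRNA to 178 and 93 with *CHD4* siRNA.

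Upon *TRPS1* silencing, 1 of the 18 adhesion genes tested was called, that is, past the thresholds of the study (over 2-fold, p under 0.05), with the p taken here before adjustment, against 5.87% of all 12921 genes tested. That gene, *SLITRK6*, was higher (2.7% of all genes were called higher), and 0 of 18 were called lower (3.17%). The median log2 fold change of the 18 was -0.207, beside -0.0238 over all genes. At an adjusted p under 0.05, 0 genes of any kind passed in edgeR's quasi-likelihood test, with 902 genes under an unadjusted p of 0.05, 34 passing in the likelihood ratio test and 39 in DESeq2, none of them an adhesion gene. DESeq2 gave no adjusted p for *SLITRK6*, *NLGN1*, *FLRT3* and *LRRC4*, so these genes could not pass in it. Both silenced libraries lay above both control libraries for 4 of the 18 (22.8% of all genes) and below for 3 (21.3%), so these counts were near the background.

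*SLITRK6* encodes a membrane protein with leucine-rich repeats that is known from the inner ear and retina. It had 0 and 7 counts with control siRNA, 32 and 43 with *TRPS1* siRNA and 178 and 93 with *CHD4* siRNA. The 3 groups did not overlap, and *CHD4* siRNA was the highest. Upon *TRPS1* silencing its level went from 0.259 ± 0.367 to 2.9 ± 0.155 CPM (SD, n = 2), a log2 fold change of 3.45 (SE 1.21, edgeR unadjusted p = 0.0276, adjusted p = 0.659). Without control siRNA replicate 1, in which it had 0 counts, the log2 fold change was 2.46 (unadjusted p = 0.00146, adjusted p = 0.0548). *SLITRK6* passed the filter on low counts only through the silenced libraries, and it was no longer tested when either *TRPS1* siRNA library was left out.

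*NLGN1*, the neuroligin gene with a TRPS1 peak inside it, had 41 and 56 counts with control siRNA, 82 and 127 with *TRPS1* siRNA and 90 and 99 with *CHD4* siRNA. Both knockdowns lay above both controls. Its level was 3.55 ± 0.847 CPM in control cells and 7.98 ± 0.374 upon *TRPS1* silencing (SD, n = 2), a log2 fold change of 1.17 (SE 0.52, edgeR unadjusted p = 0.0644, adjusted p = 0.659), which was not called. It was called when library sizes alone were used for scaling (1.29, unadjusted p = 0.0462), when all 6 libraries entered 1 fit (1.17, unadjusted p = 0.0252) and when genes needed over 2 CPM in every library (1.21, unadjusted p = 0.02). Without control siRNA replicate 1 it was 0.95 (unadjusted p = 0.0351), under the 2-fold limit, and without replicate 2 it was 1.43 (unadjusted p = 0.00654, adjusted p = 0.019), in a fit that called 33.6% of all genes. The call for *NLGN1* thus turned on settings while its direction did not. The paper reports *NLGN1* as past its thresholds upon *TRPS1* silencing in its own analysis of the RNA-seq data. The paper also reports it higher in RNA-seq upon *CHD4* silencing, a comparison in which it was not called in the reported fit here. By RT-qPCR, the paper found it higher upon silencing of *TRPS1* or *CHD4*. Its ChIP-qPCR showed TRPS1 and CHD4 enriched at the regulatory region of *NLGN1*. There, CHD4 enrichment was lost when *TRPS1* was silenced, and TRPS1 enrichment was unaffected when *CHD4* was silenced.

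*FLRT3* encodes a fibronectin and leucine-rich repeat protein that binds UNC5 receptors and latrophilins. It had 23 and 46 counts in control cells and 72 and 73 upon *TRPS1* silencing, without overlap, and a log2 fold change of 1.18 (SE 0.64, edgeR unadjusted p = 0.112, adjusted p = 0.664). *CADM4*, a SynCAM gene, had 310 and 117 counts in control cells and 91 and 101 upon silencing, a log2 fold change of -1.04 (SE 0.57, unadjusted p = 0.115, adjusted p = 0.664). Neither was called. *CADM1*, the SynCAM gene with the most counts, had 2309 and 2021 counts in control cells and 1272 and 1549 upon silencing, a log2 fold change of -0.52 (SE 0.32, unadjusted p = 0.154, adjusted p = 0.672). *CNTNAP1*, with 632 and 417 against 276 and 464 counts, had a log2 fold change of -0.44 (SE 0.38, unadjusted p = 0.284, adjusted p = 0.724). *SLITRK5*, with 235 and 231 against 208 and 313 counts, stood at 0.23 (SE 0.36, unadjusted p = 0.551, adjusted p = 0.844). These 5 genes, with *NLGN1* and *SLITRK6*, were those whose normalized groups did not overlap. Without control siRNA replicate 1 the log2 fold changes were 0.75 for *FLRT3*, -0.20 for *CADM4*, -0.44 for *CADM1*, -0.14 for *CNTNAP1* and 0.22 for *SLITRK5*, so the values of *CADM4* and *CNTNAP1* rested mostly on that library.

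Upon *CHD4* silencing, 2 of the 20 adhesion genes tested were called, against 5.45% of all 12918 genes. Both, *SLITRK6* and *FLRT3*, were higher (2.6% of all genes were called higher) and 0 were called lower (2.85%). The median log2 fold change was 0.307, beside -0.0225 over all genes. At an adjusted p under 0.05, 0 of all genes passed in the quasi-likelihood test, with 769 under an unadjusted p of 0.05. The likelihood ratio test gave 58 and DESeq2 50, in each case with *SLITRK6* as the only adhesion gene. Silenced libraries lay wholly above the controls for 6 of the 20 (20.1% of all genes) and wholly below for 1 (19.7%). The control libraries were the same 2 as in the *TRPS1* comparison, so the fold changes of these comparisons are not independent.

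*SLITRK6* rose from 0.26 ± 0.368 to 11.9 ± 6.39 CPM (SD, n = 2), a log2 fold change of 5.47 (SE 1.18, edgeR unadjusted p = 0.00194, adjusted p = 0.784). Without control siRNA replicate 1 it was 4.50. In this comparison too, *SLITRK6* passed the filter only through the silenced libraries, with 0 and 0.52 CPM against 16.4 and 7.37. The gene was not tested when either *CHD4* siRNA library was left out. *FLRT3*, with 98 and 97 counts upon *CHD4* silencing against 23 and 46, rose from 2.54 ± 1.25 to 8.36 ± 0.953 CPM, a log2 fold change of 1.72 (SE 0.64, unadjusted p = 0.0296, adjusted p = 0.792). It was 1.30 without control siRNA replicate 1 (unadjusted p = 0.0194), still called. With either *CHD4* siRNA library left out it was 1.62 (unadjusted p = 0.214) or 1.86 (unadjusted p = 0.137) and no longer called.

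*NLGN1* stood at 1.18 (SE 0.57, edgeR unadjusted p = 0.0754, adjusted p = 0.792), with 8.07 ± 0.319 CPM upon *CHD4* silencing, and at 0.97 (unadjusted p = 0.0518) without control siRNA replicate 1. *CADM1* had the only other p under 0.05, at a fold under 2. Its counts were 1035 and 920 against 2309 and 2021 in control cells, its level was 84.2 ± 15.9 against 158 ± 11.3 CPM, and its log2 fold change was -0.91 (SE 0.37, unadjusted p = 0.0407, adjusted p = 0.792), and -0.82 (unadjusted p = 0.0151) without control siRNA replicate 1. *LRRC4B*, which encodes a ligand of the LAR phosphatases, had 20 and 6 counts in control cells and 39 and 27 upon silencing, a log2 fold change of 1.59 (SE 0.87, unadjusted p = 0.106, adjusted p = 0.792) that was 2.66 (unadjusted p = 0.00586) without control siRNA replicate 1. This gene passed the filter only through the *CHD4* siRNA libraries, and it was not tested when either of them was left out. *CNTNAP1* stood at 0.42 (SE 0.41, unadjusted p = 0.334, adjusted p = 0.827) and *SLITRK5* at 0.32 (SE 0.40, unadjusted p = 0.448, adjusted p = 0.854), and at 0.73 and 0.33 without that library. The phosphatase genes were not called, with *PTPRF* at -0.02 (SE 0.38, unadjusted p = 0.955) and *PTPRS* at -0.47 (SE 0.41, unadjusted p = 0.289), and at 0.30 and 0.05 without control siRNA replicate 1.

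The direct comparison of *CHD4* siRNA with *TRPS1* siRNA uses no control library. Of 21 adhesion genes tested, 2 were called, against 3.67% of all 13143 genes, and both were higher with *CHD4* siRNA (2.12% were called higher and 1.56% lower, with 0 adhesion genes lower). The median log2 difference was 0.0976, beside -0.00127 over all genes. *CHD4* siRNA libraries lay wholly above *TRPS1* siRNA libraries for 10 of 21 (23.3% of all genes) and wholly below for 5 (23.8%). At an adjusted p under 0.05, 0 genes passed in the quasi-likelihood test, in which 2023 genes had an unadjusted p under 0.05. The likelihood ratio test gave 570 and DESeq2 456 genes, and *NRXN2*, *SLITRK6* and *CNTNAP1* were the adhesion genes in each. These fits ignore replicate numbers, although replicate differences of the 2 knockdowns correlated at 0.631 across genes. With a replicate block in the quasi-likelihood test, 3372 genes passed. The adhesion genes among them were *CADM1*, *CNTNAP1*, *L1CAM*, *LRFN4*, *LRRC4B*, *NRXN2*, *PTPRS* and *SLITRK6*. No label says that a replicate number marks a batch.

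*NRXN2*, a presynaptic neurexin gene, had 7 and 9 counts with *TRPS1* siRNA and 46 and 37 with *CHD4* siRNA. Its level was 0.649 ± 0.0546 against 3.76 ± 1.00 CPM (SD, n = 2), a log2 difference of 2.52 (SE 0.44, edgeR unadjusted p = 0.00125, adjusted p = 0.104). Its control libraries had 49 and 3 counts and overlapped both knockdowns. Against both controls the *CHD4* value was 0.93 (SE 1.09, unadjusted p = 0.421). Against control replicate 2 alone it was 3.96 and called. The 3 counts of that control library are at the limit of detection. In that fit the gene passed the filter only through the *CHD4* siRNA libraries. In the *TRPS1* comparison *NRXN2* did not pass the filter. The *CHD4* to *TRPS1* difference was not called when all 6 libraries shared 1 estimate of spread (2.51, unadjusted p = 0.0569). *NRXN2* passed the filter of this comparison only through the *CHD4* siRNA libraries, with 0.687 and 0.61 CPM against 4.47 and 3.05, and it was not tested when either of these was left out.

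*SLITRK6* was 2.04 higher on the log2 scale with *CHD4* siRNA than with *TRPS1* siRNA (SE 0.45, edgeR unadjusted p = 0.00401, adjusted p = 0.136), at 12.5 ± 6.8 against 3.03 ± 0.16 CPM (SD, n = 2). It was called in each of the 4 fits that left out 1 library, at 1.34 to 2.52. *NLGN1* did not separate the knockdowns, with 8.45 ± 0.411 against 8.33 ± 0.395 CPM and a log2 difference of 0.02 (SE 0.24, unadjusted p = 0.942). *FLRT3* differed by 0.55 (SE 0.30, unadjusted p = 0.114) and *CADM1* by -0.38 (SE 0.19, unadjusted p = 0.0951), and neither was called.

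A further 3 genes had an unadjusted p under 0.05 at a fold under 2, all higher with *CHD4* siRNA. *CNTNAP1* had 513 and 692 against 276 and 464 counts, a log2 difference of 0.87 (SE 0.17, edgeR unadjusted p = 0.00266, adjusted p = 0.123). *L1CAM*, the axon growth molecule, had 289 and 248 against 152 and 176 counts, a difference of 0.85 (SE 0.25, unadjusted p = 0.0142, adjusted p = 0.206). *LRFN4* had 534 and 536 against 360 and 399 counts, a difference of 0.62 (SE 0.20, unadjusted p = 0.0215, adjusted p = 0.235). Control libraries had 284 and 152 counts of *L1CAM* and 655 and 403 of *LRFN4*, so that the control pair was spread more widely than either knockdown pair. *CADM4* stood at 0.53 (SE 0.27, unadjusted p = 0.0955) and *PTPRS* at -0.33 (SE 0.15, unadjusted p = 0.0752).

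**Figure D2:**
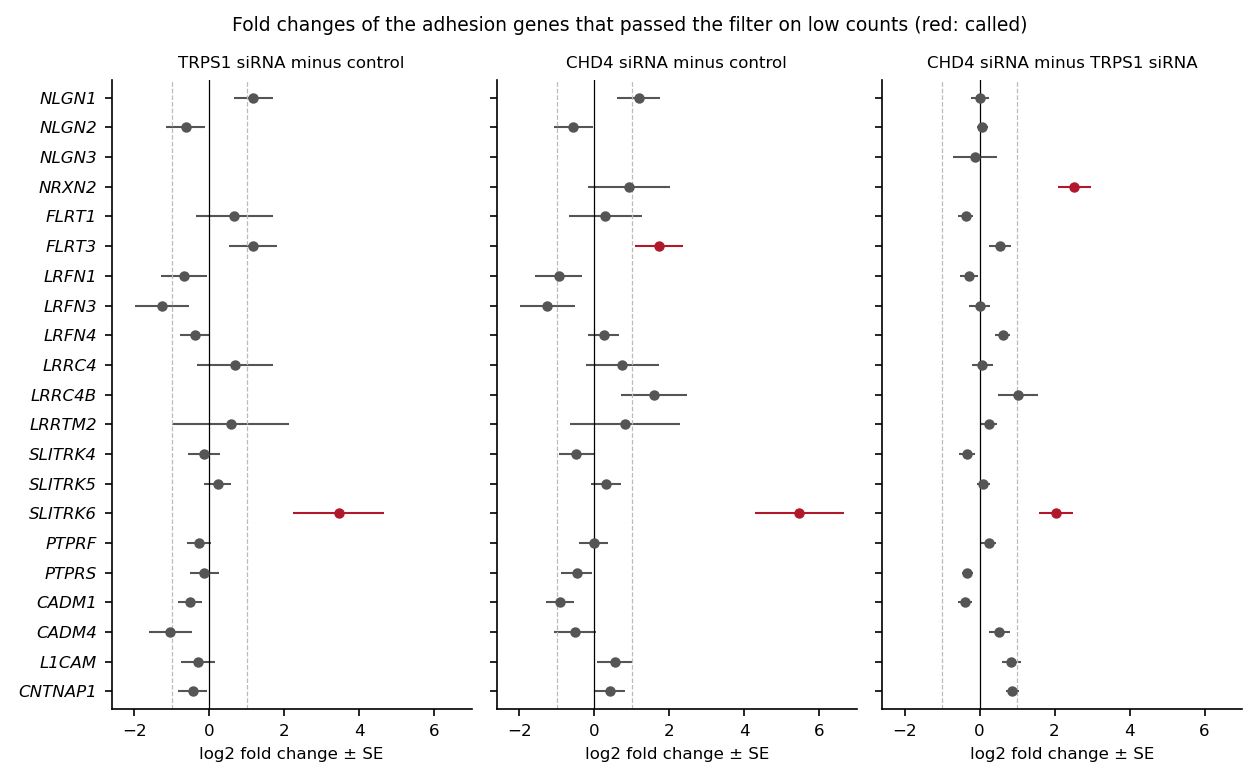
Log2 fold changes with their standard errors (horizontal axis) of the adhesion genes tested in each comparison, in the order of roles used for the counts. Red marks called genes, dashed lines mark a 2-fold change, genes without a point did not pass the filter, and the error bars are narrower in the panel that uses no control library, with a common dispersion of 0.041 against 0.1416 and 0.1508.

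Several adhesion genes differed strongly between the 2 control libraries. Of the 20 genes with 3 counts everywhere, 13 lay outside the range of the other 5 libraries in control siRNA replicate 1, as did 67.5% of all such genes, and 6 adhesion genes fell under 3 counts in that library alone. *LRRTM2*, which encodes a neurexin ligand, had 0 counts in control replicate 1 and 193 in replicate 2, with 117 and 160 with *TRPS1* siRNA and 140 and 157 with *CHD4* siRNA. *FLRT1* had 18 and 257 counts in control cells, with 180 and 237 and then 132 and 161 in the knockdowns. *LRRC4*, a netrin-G ligand gene, had 9 and 100, with 79 and 86 and then 73 and 86. All 3 were far lower in control replicate 1 than in the other 5 libraries, which lay close together.

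The fold changes of these 3 genes took their direction from that library. For *LRRTM2* the log2 fold change was 0.58 with *TRPS1* siRNA and 0.82 with *CHD4* siRNA against both controls, and -0.42 and -0.16 without control replicate 1. For *FLRT1* it was 0.67 and 0.29, and -0.24 and -0.60 without it. For *LRRC4* it was 0.69 and 0.75, and -0.19 and -0.12 without it. None of these values was called. In the opposite direction, *LRFN3*, a SALM gene, had 266 and 61 counts in control cells against 50 to 80 in the knockdowns, and its log2 fold change of -1.26 in both comparisons became 0.14 in both without control replicate 1. *LRFN1* had 279 and 88 control counts against 74 to 127, and *NLGN2* 2256 and 780 against 723 to 1141, each highest in control replicate 1.

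*LRRTM2*, *FLRT1* and *LRRC4* share a position. In RefSeq they lie inside *CTNNA1*, *MACROD1* and *SND1*, each on the strand opposite to that host gene. In all, 7 of the 45 genes lie inside another protein-coding gene on the opposite strand, the others being *LRRTM1* in *CTNNA2*, *LRRTM3* in *CTNNA3*, *FLRT3* in *MACROD2* and *LRFN4* in *PC*. The strand setting of the counting is not given in the sources used here, so reads of such a gene and of its host cannot be told apart. The hosts had 4098 and 4138 (*CTNNA1*), 889 and 204 (*MACROD1*) and 1969 and 2155 counts (*SND1*) in control replicates 1 and 2. *FLRT3* had 23 and 46 counts there with 21 and 9 for *MACROD2*, and *LRFN4* had 655 and 403 with 1445 and 937 for *PC*. With *CHD4* siRNA, *FLRT3* had 98 and 97 counts and *MACROD2* had 16 and 19. *FLRT3*, which was called upon *CHD4* silencing, belongs to this group, and the part of its host in that result was not tested.

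**Figure D3:**
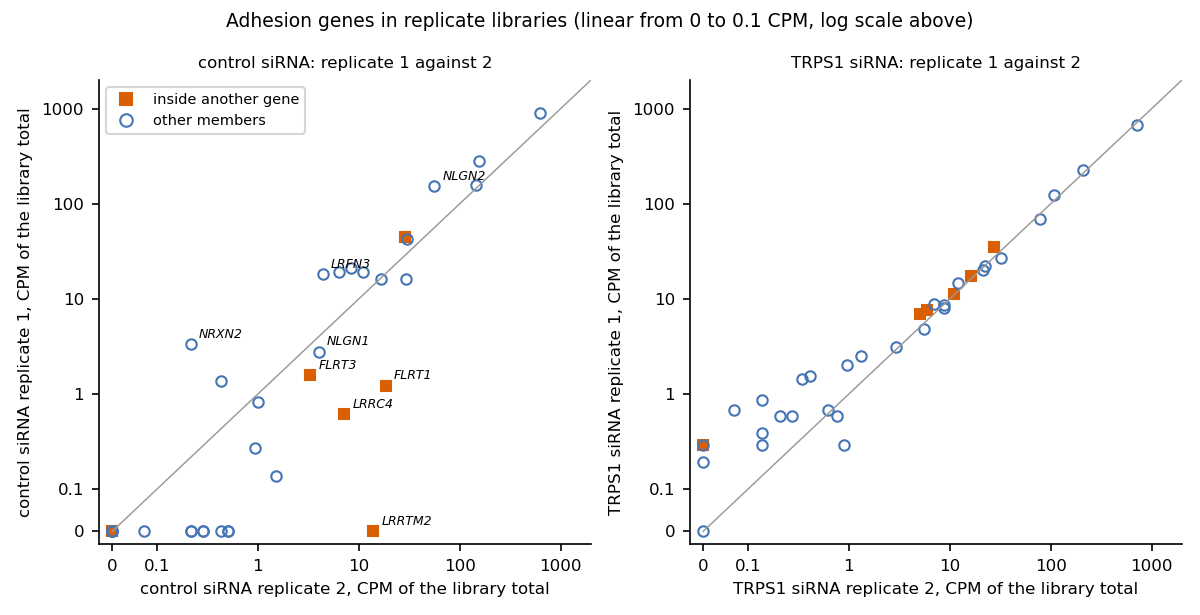
CPM of the library total in replicate 1 (vertical axis) against replicate 2 (horizontal axis) for control siRNA (left) and *TRPS1* siRNA (right), with a point for each adhesion gene with 3 counts in some library, on axes linear from 0 to 0.1 and logarithmic above. Squares are genes inside another protein-coding gene and the line marks equality, with *LRRTM2*, *FLRT1* and *LRRC4* far under the line in the control pair (0, 18 and 9 counts in replicate 1) and near it in the *TRPS1* siRNA pair.

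The share of adhesion genes with a TRPS1 peak was near that of all protein-coding genes, although the adhesion genes are long. With a peak inside the gene or within 5 kb of it counted, 2 of 45 adhesion genes had one (4.44%), against 5.75% of 20037 protein-coding genes. The median length was 117 kb for the adhesion genes and 24.1 kb for all protein-coding genes. Among genes over 100 kb, 1 of 24 adhesion genes (4.17%) and 11.9% of 3356 protein-coding genes had a peak. Within 17.9 Mb of adhesion genes lay 1 peak, or 0.0559 per Mb, against 0.748 per Mb over the 1296 Mb of all protein-coding genes. The adhesion gene value thus rests on a single peak. Much of this length lies in genes with few counts, such as *CNTNAP2* (2304 kb, 3 to 22 counts) and *PTPRD* (2299 kb, 0 to 9 counts). Within 100 kb the counts were 8 of 45 (17.8%) and 20.5%. These are descriptions without a test.

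**Figure D4:**
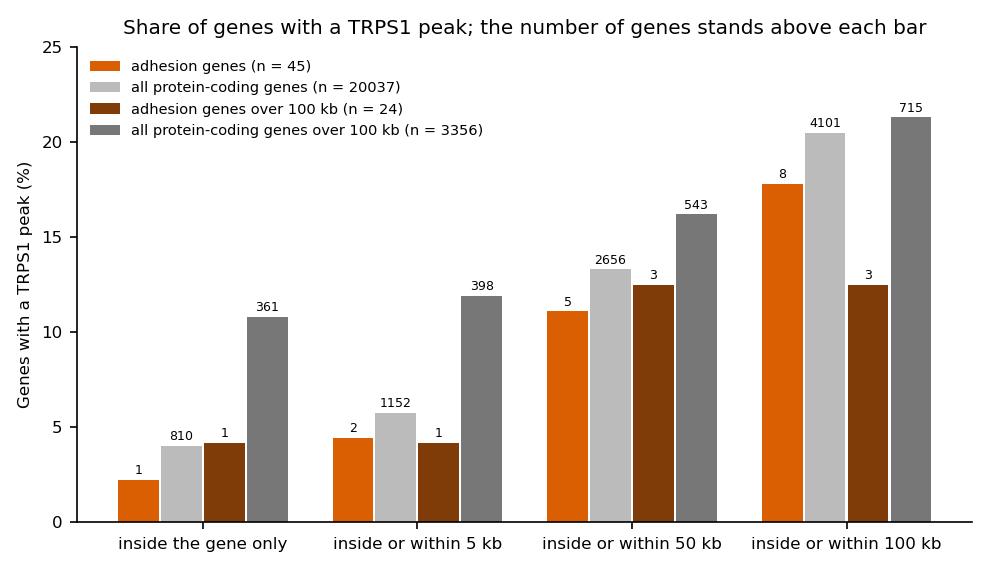
Percentage of genes with a TRPS1 peak (vertical axis, from 0) for 4 windows around the gene, with the number of genes with a peak above each bar. The adhesion genes (orange) stood at 2.22% to 17.8%, under all protein-coding genes (4.04% to 20.5%) in each window, and the 24 adhesion genes over 100 kb (brown) had 1 to 3 genes with a peak.

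The peak inside an adhesion gene was at *NLGN1* (plus strand, chr3:173395952-174294372, GRCh38). It covered chr3:174125385-174125593, 209 bp wide, with its centre 728 kb from the nearest *NLGN1* start. Whether it lies in an exon or intron was not determined here. A second peak, chr3:174355505-174355824, lay 61.1 kb beyond the downstream end of the gene, with *NLGN1* as the nearest protein-coding gene. *NLGN1* was the only adhesion gene with 2 peaks that had no other gene nearer to them.

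The other gene with a peak within 5 kb was *CNTNAP1* (plus strand, chr17:42682531-42699993), with a peak at chr17:42678438-42678757, 3.77 kb upstream. This peak was nearer to 2 other genes and only 132 bp from *CCR10*. *NLGN3* (plus strand, chrX:71144841-71175307) was the nearest gene to chrX:71181924-71182171, 6.62 kb downstream, and had 2 and 21 counts in control cells, 26 and 19 with *TRPS1* siRNA and 25 and 13 with *CHD4* siRNA, which overlap. *PTPRF* (plus strand, chr1:43522051-43623666) was the nearest gene to chr1:43493954-43494326, 27.7 kb upstream, and its log2 fold change upon *TRPS1* silencing was -0.27 (SE 0.33, edgeR unadjusted p = 0.449), and 0.04 without control siRNA replicate 1. *SLITRK6* (minus strand, chr13:85792790-85799419) was the nearest gene to chr13:85716383-85716678, 76.1 kb beyond its downstream end. The remaining pairs had other genes nearer. *LRRTM3*, with 0 to 8 counts, lay 13.5 kb from a peak inside its host *CTNNA3*, *LRRC4B* had 4 nearer genes at 89.6 kb, and the 2 peaks within 100 kb of *NLGN2* had 19 and 9 nearer genes.

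Genes for partners and scaffolds of these proteins were counted in the same fits. Beside the counts stand the shares of all genes called higher and lower, 2.7% and 3.17% upon *TRPS1* silencing, 2.6% and 2.85% upon *CHD4* silencing and 2.12% and 1.56% between the knockdowns. Of the list of 32 extracellular partners, 15 were tested upon *TRPS1* silencing, with 2 called higher and 1 lower, 16 upon *CHD4* silencing, with 3 higher and 0 lower, and 17 between knockdowns, with 3 higher with *CHD4* siRNA and 0 lower. *EPHB2*, a receptor tyrosine kinase for ephrin-B ligands, was called higher in both knockdowns, with 66 and 48 counts in control cells, 165 and 170 with *TRPS1* siRNA (log2 fold change 1.67, SE 0.49, edgeR unadjusted p = 0.0128, adjusted p = 0.659) and 138 and 144 with *CHD4* siRNA (1.54, SE 0.52, unadjusted p = 0.0203, adjusted p = 0.792). *MDGA1*, which encodes a membrane-anchored protein that binds neuroligins and blocks neurexin binding, had 494 and 335 counts in control cells and 80 and 121 upon *TRPS1* silencing, and fell by 1.97 on the log2 scale (SE 0.41, unadjusted p = 0.00238, adjusted p = 0.659). With *CHD4* siRNA it had 216 and 242 counts and a log2 fold change of -0.63 (SE 0.41, unadjusted p = 0.168), or -0.33 without control siRNA replicate 1, and between the knockdowns it was 1.35 higher with *CHD4* siRNA (SE 0.21, unadjusted p = 0.00066, adjusted p = 0.0941). *TENM1*, a teneurin that binds latrophilins, had 191 and 509 counts in control cells and 1092 and 816 upon *CHD4* silencing, and rose by 1.68 (SE 0.56, unadjusted p = 0.0185, adjusted p = 0.792). *SDC2*, a heparan sulphate proteoglycan, had 15 and 46 counts with *TRPS1* siRNA and 110 and 114 with *CHD4* siRNA, a difference of 2.09 (SE 0.40, unadjusted p = 0.00204, adjusted p = 0.113).

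Of the 33 intracellular scaffold genes, 25 were tested upon *TRPS1* silencing (2 higher, 0 lower), 26 upon *CHD4* silencing (1 higher, 0 lower) and 27 between the knockdowns (1 higher and 1 lower with *CHD4* siRNA). *LIN7A*, whose product works with the scaffold CASK that binds neurexins, was called in both knockdowns. It had 10 and 12 counts in control cells, 63 and 56 with *TRPS1* siRNA (log2 fold change 2.55, SE 0.68, edgeR unadjusted p = 0.00808, adjusted p = 0.659) and 72 and 69 with *CHD4* siRNA (2.90, SE 0.70, unadjusted p = 0.00384, adjusted p = 0.792). Both knockdown pairs of *LIN7A* lay well above the control pair, which had 0.72 and 0.889 CPM in the *TRPS1* comparison. The gene passed the filter only through the silenced libraries, and it was not tested when either library of the knockdown compared was left out. *DLGAP3*, a scaffold of the postsynaptic density, had the largest difference between the knockdowns among the called scaffolds, with 13 and 14 counts with *TRPS1* siRNA and 38 and 34 with *CHD4* siRNA (1.55, SE 0.41, unadjusted p = 0.00902, adjusted p = 0.179). It had 57 and 13 counts in control cells, a range that holds both knockdown pairs. It too passed the filter only through the *CHD4* siRNA libraries (1.28 and 0.949 against 3.69 and 2.8 CPM), was not tested without either of them, and lost its call without *TRPS1* siRNA replicate 2 (1.35, unadjusted p = 0.0568). With control siRNA replicate 1 left out, log2 fold changes with *TRPS1* and *CHD4* siRNA were 2.40 and 2.76 for *LIN7A* and 1.89 and 1.77 for *EPHB2*, that of *MDGA1* upon *TRPS1* silencing was -1.69 and that of *TENM1* upon *CHD4* silencing was 1.14, all still called. With a silenced library left out, *EPHB2* lost its call at 1.42 and 1.92 with *TRPS1* siRNA and at 1.48 and 1.64 with *CHD4* siRNA, *MDGA1* at -1.93 (unadjusted p = 0.0523) without *TRPS1* siRNA replicate 1 and *TENM1* at 1.35 (unadjusted p = 0.107) without *CHD4* siRNA replicate 1.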

How the data were processed

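According to the labels and the paper's methods, the authors used STAR for the reads of rRNA-depleted RNA and HTSeq (0.9.0) for counting, and deposited raw counts per gene symbol. Genes without a count in a table are not listed in it. The authors aligned ChIP-seq reads with BWA (0.7.12-r1039) to hg38 and called peaks with MACS2 (2.1.1). The deposited list gives peak positions in bp and no score, and whether replicates were pooled is not given in the sources used here, nor are the strand setting and annotation of the counting. Nothing states that replicates came from separate cultures, so p-values measure the spread between these libraries, which may be technical.

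Each pair of groups was compared in edgeR (4.0.16, R 4.3.3) by the quasi-likelihood F-test on the counts of the whole table, with TMM factors, a filter of over 2 CPM in 2 or more of the 4 libraries compared, a prior count of 0.125 and Benjamini-Hochberg adjustment over all genes tested. The tables were joined by symbol for the direct comparison, with absent genes at 0, and the control counts were equal in both. The SE was taken from the fold change and its F value (|log2 fold change|/√F), CPM are TMM-scaled, and a gene is called when it is over 2-fold different with p under 0.05, the thresholds of the study, with the p taken here before adjustment. Peaks were set against RefSeq gene positions (GRCh38.p14, of the same build as the peaks), and distances run from the edge of the peak to the end of the gene. Promoter sequences are RefSeq's, and the *NLGN1* primers are the study's.

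The members, lists and marker genes were chosen with earlier results of these data known. Values per library are given for members that passed the filter in a comparison, were called, or had a peak within 100 kb. Of the partner and scaffold lists, genes called in both knockdowns or with the largest fold change among those called in a comparison are named. Alternatives were other scalings, filters, tests and prior counts, all 6 libraries in 1 fit, a replicate block, each library left out, other peak windows and other count limits, with DESeq2 (1.42.0) among them. Figures were drawn with matplotlib (3.10.9).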

Additional observations from a re-analysis of the deposited data

How the results depend on the processing

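Without any 1 library, the number of adhesion genes called was 0 to 10 upon *TRPS1* silencing, 0 to 10 upon *CHD4* silencing and 1 to 4 between the knockdowns. The 10 came without control siRNA replicate 2 in both cases, with 33.6% and 31% of all genes called, and the 0 without either silenced library, when *SLITRK6* was no longer tested. Leaving out control siRNA replicate 1 left 1 control library. *SLITRK6* (2.46) was then called upon *TRPS1* silencing. Upon *CHD4* silencing *FLRT3* (1.30), *SLITRK6* (4.50), *LRRC4B* (2.66), *NRXN2* (3.96) and *L1CAM* (1.05) were called. In the control library kept, *SLITRK6*, *LRRC4B* and *NRXN2* had 7, 6 and 3 counts, and they passed the filter only through the silenced libraries. Upon *TRPS1* silencing 2 adhesion genes were called with library sizes alone or all 6 libraries in 1 fit. Upon *CHD4* silencing 4 were called without a filter, and 1, *NLGN1*, with over 2 CPM in every library. Between the knockdowns 1 was called with that filter or with all 6 libraries. At an adjusted p under 0.05, 0 were called in each comparison in the reported fit. Without a filter on low counts, *SLITRK6* passed that limit upon *CHD4* silencing, among 111 genes. Between the knockdowns *CNTNAP1*, *NRXN2* and *SLITRK6* then passed, among 424 genes. The replicate numbers are shared by the groups, but no label says that a number marks a batch, and replicate differences correlated across genes at 0.0744 (control and *TRPS1* siRNA), 0.0149 (control and *CHD4* siRNA) and 0.631 (*TRPS1* and *CHD4* siRNA). With a replicate block, 3 adhesion genes were called in each comparison, beside 9.45%, 7.44% and 4.07% of all genes, *LRRTM2* and *FLRT1* joining *SLITRK6* upon *TRPS1* silencing. At an adjusted p under 0.05 the block gave 32, 44 and 3372 of all genes and 0, 1 and 8 adhesion genes in the 3 comparisons, and leaving out control siRNA replicate 2 gave 12 and 11 adhesion genes of 6070 and 3874 in the first 2.

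Leaving out 1 library turned the direction of some genes. With *TRPS1* and then *CHD4* siRNA against control, log2 fold changes ranged from -1.95 to 0.14 in both for *LRFN3*, from -0.42 to 10.15 and -0.16 to 10.30 for *LRRTM2*, from -0.24 to 3.63 and -0.60 to 3.26 for *FLRT1* and from -0.19 to 3.30 and -0.12 to 3.37 for *LRRC4*, the control replicate left out being replicate 1 at the end nearer to 0 and replicate 2 at the other. The upper values of *LRRTM2* rest on a control of 0 counts and on the prior count, and are no measure of size. Between the knockdowns *NLGN1* ranged from -0.03 to 0.08. *PTPRF* ranged from -0.52 to 0.04 upon *TRPS1* silencing and from -0.27 to 0.30 upon *CHD4* silencing, where it was 0.10 with library sizes alone and 0.03 with over 2 CPM in every library, and *PTPRS* from -0.85 to 0.05 upon *CHD4* silencing. Of 655 fold changes under alternatives, of the genes whose fold change is printed here, 599 kept direction and call, 28 became called, 12 lost a call and 16 turned direction. A further 31 gave no value because the gene was not tested, 20 of them for genes called in the reported fit, such as *SLITRK6* and *LIN7A* without either silenced library and *NRXN2* between the knockdowns without either *CHD4* siRNA library. The cause was not tested.

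Members with a TRPS1 peak numbered 1 inside the gene, with the 915 wider peaks or within 5 kb of a gene start, 5 within 50 kb and 8 within 100 kb. With a limit of 1 or 10 counts, 21 or 15 members were detected everywhere. With 2 libraries per group, fold changes of genes under 3 counts were not measurable.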

Other observations

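Lower counts in control siRNA replicate 1, as for *LRRTM2*, *FLRT1* and *LRRC4*, were more frequent among genes inside another protein-coding gene. The nested genes counted include these 3, and strand was not taken into account. Of 361 expressed protein-coding genes that lie inside another protein-coding gene, 57 (15.8%) were over 4-fold lower in control siRNA replicate 1 than in replicate 2, against 255 of 11220 other expressed protein-coding genes (2.27%). In replicate 1, 12.2% of the nested genes and 1.3% of the others had under 3 counts, and in replicate 2 0.277% and 0.143%. The median log2 ratio of replicate 1 to replicate 2 over the nested genes was -0.384 with control siRNA, -0.0757 with *TRPS1* siRNA and -0.172 with *CHD4* siRNA. These are descriptions without a test, and the pattern was looked for after the adhesion genes had shown it.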
